A study of Mus musculus with 18 samples.

Results

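The growth factor receptor genes Pdgfra, Pdgfrb, Egfr, Erbb2, Erbb3, Erbb4, Fgfr1, Fgfr2, Fgfr3 and Igf1r were followed on microarrays of differentiating neurosphere cultures. A probe set was taken as a member when the annotation of the array pairs it with 1 symbol among these 10 and no other, which gave 10 of 18194 annotated genes and 29 of the 45101 probe sets. Of these, 18 probe sets of 8 genes had a mean signal of at least 100 in at least 1 group and were tested. Erbb2 and Erbb4 stayed below 100 in every group and were not tested.

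The cultures came from the ganglionic eminences, the ventral forebrain regions that give rise to striatal and pallidal neurons and to interneurons and oligodendrocyte precursors, of E15.5 C57BL/6 mice. Arrays were made from cultures treated with BMP2 at 10 ng/ml, a secreted factor of the TGF-beta superfamily, with trichostatin A (TSA) at 50 nM, which blocks histone deacetylases, or left as controls. The 18 arrays comprise 2 BMP2, 2 TSA and 2 control arrays at 6 h, and 2 BMP2, 4 TSA and 6 control arrays at 24 h. All cultures had been expanded as spheres with 20 ng/ml EGF and 10 ng/ml bFGF, and were then plated without EGF in 1% fetal calf serum. The sources differ on whether bFGF was still present during the treatment, since the labels place the addition of the reagents at the change to medium without it, after 2.5 days, and the published schedule places it earlier.

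Receptor tyrosine kinases span the membrane, bind a growth factor outside the cell, pair up and phosphorylate each other, and the phosphorylated tails recruit adaptors that feed the Ras-MAP kinase and PI3 kinase routes. In the embryonic forebrain EGF and FGF receptors are known for sustaining neural progenitors, which is why both factors are used to grow neurospheres. Pdgfra marks oligodendrocyte precursors, whose division depends on its ligand PDGF-A, whereas Pdgfrb is best known from the mural cells of vessels.

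Egfr and Pdgfra were the members that passed the test as lower after BMP2 at both times, and the 250 bases in front of their annotated start sites are shown for that reason. The sequences are from RefSeq on GRCm38.p6, for Egfr at chr11:16751953-16752202 and for Pdgfra at chr5:75152001-75152250, both on the plus strand and written 5′ to 3′. Capitals mark GTCT on either strand, the short core that Smad proteins, the transducers of BMP signals, can bind.

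Egfr: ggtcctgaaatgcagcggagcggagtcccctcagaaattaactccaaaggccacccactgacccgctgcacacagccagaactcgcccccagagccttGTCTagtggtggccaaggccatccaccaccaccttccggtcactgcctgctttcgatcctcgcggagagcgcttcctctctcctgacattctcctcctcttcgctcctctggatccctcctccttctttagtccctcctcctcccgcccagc
Pdgfra: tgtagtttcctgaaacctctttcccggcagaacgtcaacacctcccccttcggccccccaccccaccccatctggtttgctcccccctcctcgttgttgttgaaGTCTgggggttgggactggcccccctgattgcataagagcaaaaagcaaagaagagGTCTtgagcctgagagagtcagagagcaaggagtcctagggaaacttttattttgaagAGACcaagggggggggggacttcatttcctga

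The Egfr window held 1 match to GTCT, 152 bases before the start, and the Pdgfra window held 3, the nearest 32 bases before it. Over 32851 promoter windows of 250 bases, 82.9% held at least 1 such match on either strand, so such a match is common. Neither window held GGCGCC, a GC-rich element reported for Smad1 and present in 9.59% of windows, or TATAAA, the TATA box, present in 12.4%. The GC box GGGCGG, present in 32.7% of windows, occurred 1 time for Egfr and 0 times for Pdgfra. GC content was 60.8% for Egfr and 54.4% for Pdgfra. In all, promoter windows were taken for 7 of the 10 members, and Pdgfrb, Fgfr1 and Erbb3 are named without one. The search for members left out 1 chromosome, which the count over all windows kept.

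On the array level 4 of the 18, both BMP2 arrays of 24 h and control replicates 5 and 6 of 24 h, stood apart from the others. One probe set of Xist, the RNA of the inactive X chromosome, read 703 to 2086 on these and 18.4 to 75.5 on the remaining 14 arrays. Another Xist probe set also separated them, with 2197 to 4467 on the 4 arrays and 325 to 1875 on the 14, while the last one ran lower on the 4, with 23.4 to 97.5 against 66.8 to 375. Because these 4 arrays hold both BMP2 arrays of 24 h, the member values at 24 h are also given with membership of the Xist-high arrays as a term, which compares BMP2 with control replicates 5 and 6 and TSA with replicates 1 to 4. Within groups, arrays correlated at 0.963 to 0.994 on the log2 scale. The labels do not say whether replicates came from separate cultures, so the p-values cover no more than the differences from array to array. Of the markers, those of microglia (6 of 6 genes) and endothelium (5 of 5) were below 100 in every group. For the ganglionic eminence Dlx1 read 151 to 992 in group means, while Nkx2-1 and Dlx6 stayed below 100. Since RNA was taken from whole cultures, fewer cells of a type and less RNA per cell cannot be told apart.

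Signals below are quantile-normalized and linear. Log2 changes, and the factors and folds taken from them, are of the signal plus 32, which understates the change, most of all for dim genes. "Rose" and "fell" are used of a gene where limma's adjusted p was under 0.05, after Benjamini and Hochberg over all 19439 probe sets tested. Values of a gene are those of its brightest probe set, and further probe sets are counted in order of brightness.

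BMP2 lowered the signal of 2 of the 8 receptor genes tested at 6 h, Egfr and Pdgfra, where 0.643% of all 10574 genes fell and 1.8% passed in either direction. At 24 h Egfr, Pdgfra and Pdgfrb fell and no member rose, where 7.76% of all genes fell and 17.7% passed in either direction, and with the Xist-high arrays as a term Egfr and Pdgfra passed, where 11.1% of all genes did. TSA at 6 h lowered Pdgfra alone among the members, while 11.8% of all genes fell and 26.4% passed. At 24 h of TSA, Egfr and Fgfr1 had risen and Pdgfra had fallen, against 38.8% of all genes that passed, 18.6% higher and 20.2% lower, and 37.2% with the Xist-high arrays as a term. The 1 of 8 members called at 6 h of TSA was thus below the share of the whole array, and the 3 of 8 at 24 h near it. The median log2 change over the 8 members was -0.11 for BMP2 at 6 h, -1.04 for BMP2 at 24 h, -0.59 for TSA at 6 h and 0.21 for TSA at 24 h, and that of all genes lay between -0.02 and 0.03. With the Xist-high arrays as a term the median of the members was -0.16 for BMP2 and 0.10 for TSA at 24 h.

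**Figure D1:**
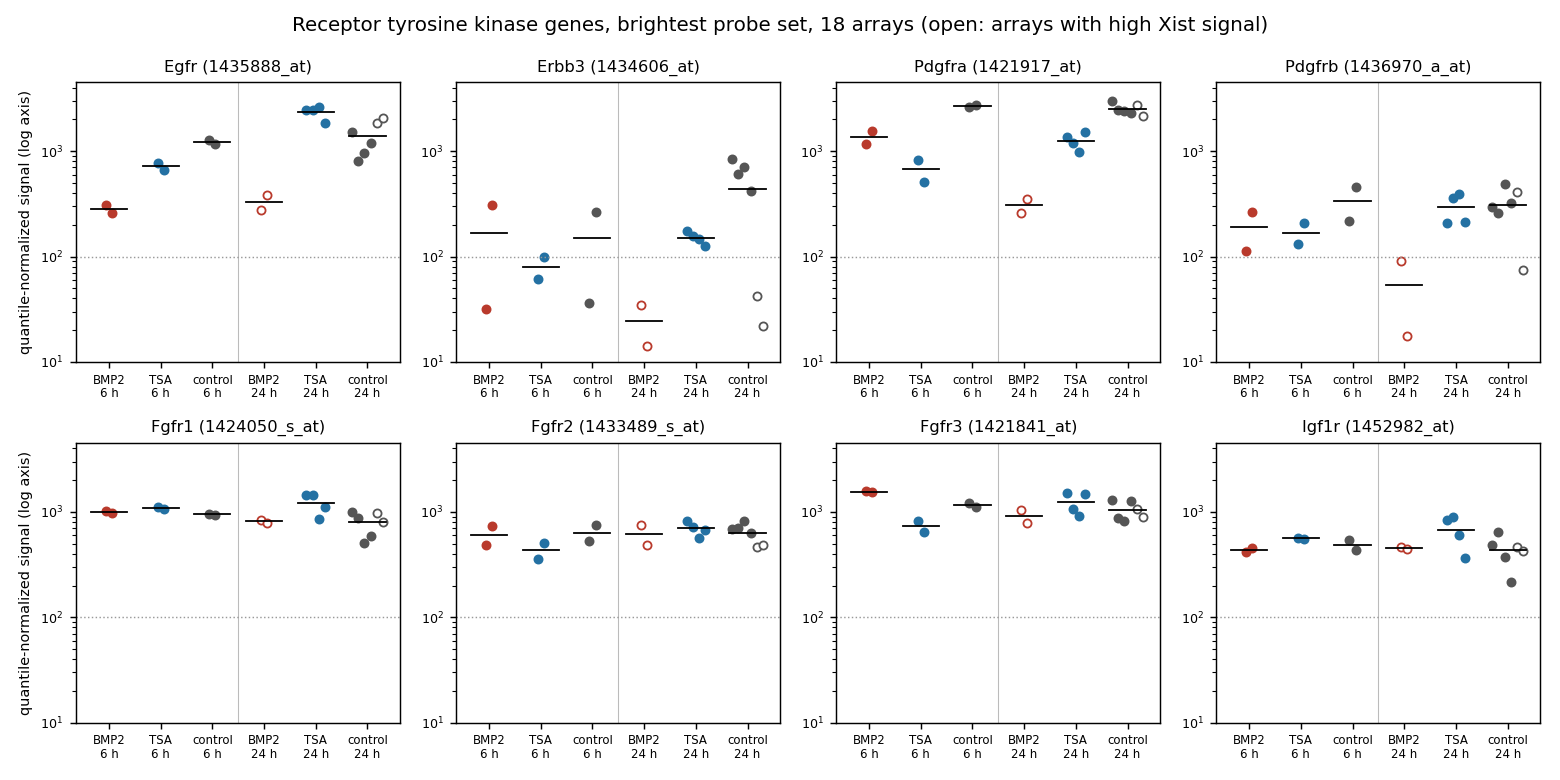
Quantile-normalized signal of the 8 tested receptor genes on each of the 18 arrays (log axis), by treatment and time, with points for arrays, short bars for group means, a dotted line at the signal of 100, and open symbols for the 4 Xist-high arrays. The BMP2 arrays of Egfr lie between 261 and 387 and all TSA and control arrays above 600, while Erbb3 in the 24 h controls splits into 4 arrays above 400 and 2 below 50.

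**Figure D2:**
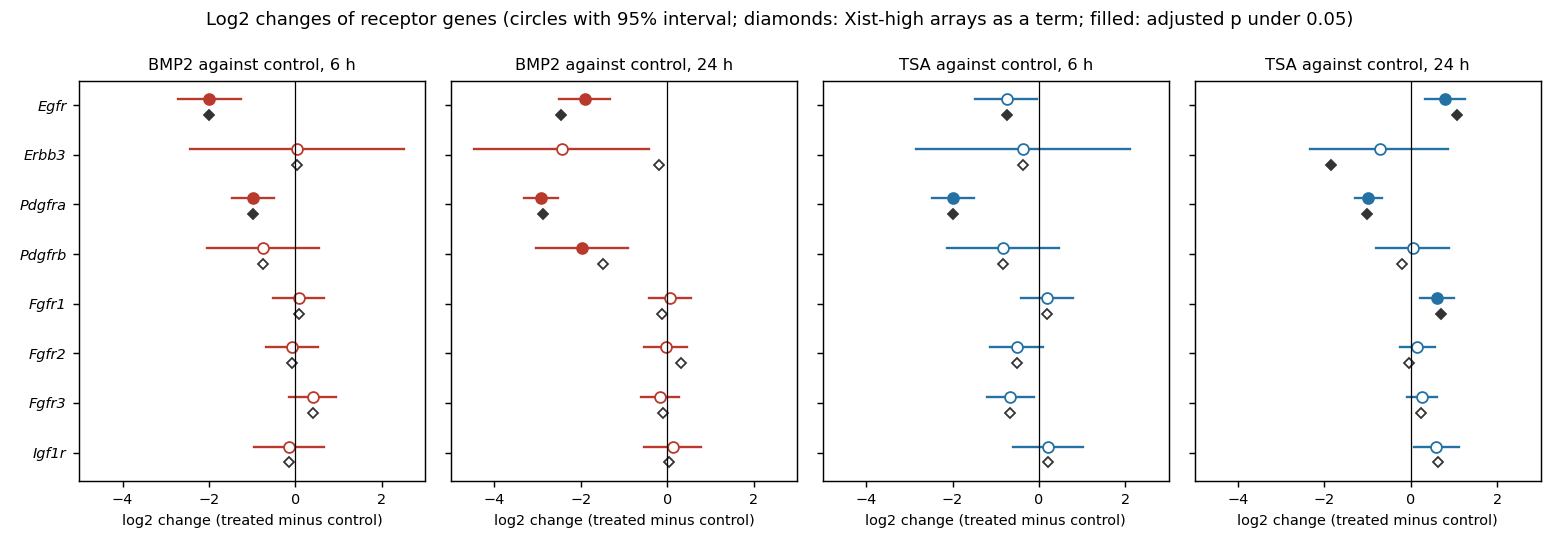
Log2 change of each tested receptor gene against the controls of the same time, with circles and 95% intervals from the model of 6 groups, diamonds for the model with the Xist-high arrays as a term, and filled symbols for an adjusted p under 0.05. At 24 h the diamond of Pdgfrb after BMP2 (-1.48) is open and that of Erbb3 after TSA (-1.85) is filled, opposite to their circles.

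Egfr, the receptor of EGF and TGF-alpha, moved with both reagents. At 6 h its signal was 309 and 261 on the BMP2 arrays, 770 and 662 on the TSA arrays and 1283 and 1169 on the control arrays. At 24 h it was 277 and 387 with BMP2, and 2443, 2435, 2647 and 1833 with TSA, against a lowest value of 799, a median of 1356 and a highest of 2071 over the 6 controls. The BMP2 arrays were below all TSA and control arrays at both times, and 3 of the 4 TSA arrays of 24 h were above every control. Such a separation of BMP2 from control arrays, in either direction, held for 44% of all probe sets at 6 h and 29.9% at 24 h. For BMP2 and TSA arrays it held for 75.3% and 55.5%. BMP2 lowered Egfr by a factor of 3.97 at 6 h (log2 change -1.99 ± 0.34 SE, adjusted p = 0.0041) and of 3.77 at 24 h (-1.91 ± 0.28, adjusted p = 0.000162). TSA left it at -0.75 ± 0.34 at 6 h, which did not pass (adjusted p = 0.126, and 0.0294 with the Xist-high arrays as a term, where 32.7% of all genes passed), and raised it by 0.79 ± 0.22 at 24 h (adjusted p = 0.0102).

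The 24 h controls were not level in Egfr. Replicates 5 and 6 read 1839 and 2071 and replicates 1 to 4 read 1511, 799, 971 and 1202, a log2 difference of 0.82 (adjusted p = 0.0514). With the Xist-high arrays as a term the changes at 24 h became larger, -2.46 for BMP2 and 1.07 for TSA. At 6 h the BMP2 call was lost without control replicate 1 (adjusted p = 0.0599) or BMP2 replicate 2 (0.0631).

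Of the 7 Egfr probe sets, 4 were tested, and they did not all show the BMP2 change. The second Egfr probe set followed the brightest, with 115 and 97.1 on BMP2 arrays and 406 and 495 on control arrays at 6 h, and its log2 changes were -1.80 (adjusted p = 0.0161, where 1.47% of all probe sets passed) and -2.01 (adjusted p = 0.000212) with BMP2 at 6 and 24 h and 1.10 with TSA at 24 h. The fourth gave -0.98 (adjusted p = 0.346) at 6 h and -0.92 (adjusted p = 0.0348, and 0.283 with the Xist-high arrays as a term) at 24 h of BMP2. By contrast the third read 223 and 233 on BMP2 arrays and 294 and 271 on control arrays at 6 h, and its changes with BMP2 were -0.27 (95% interval -0.70 to 0.15) at 6 h and -0.09 (-0.43 to 0.26) at 24 h. The intervals of this probe set leave out a fall of the size seen with the brightest one. After 24 h of TSA all 4 rose, by 0.79, 1.10, 0.55 and 1.27, where 35.4% of all probe sets passed. What transcripts the probe sets of a gene detect was not examined.

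**Figure D3:**
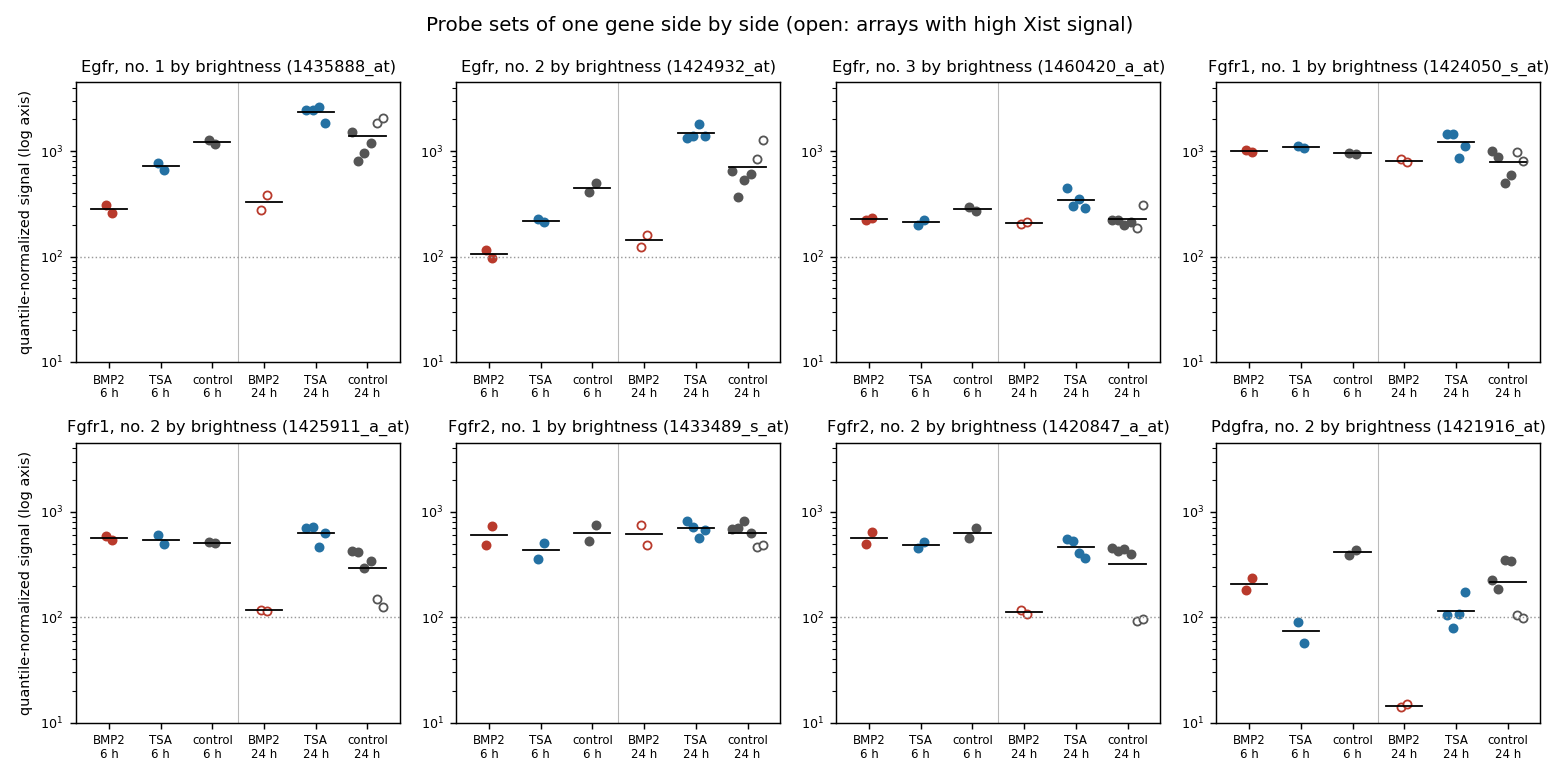
Quantile-normalized signal on each array (log axis) for further probe sets of Egfr, Fgfr1 and Fgfr2 beside the brightest ones, and for the second Pdgfra probe set alone. Bars mark group means and open symbols the 4 Xist-high arrays. The third Egfr probe set stays between 187 and 444 on all arrays, and the second ones of Fgfr1 and Fgfr2 read below 150 on all 4 Xist-high arrays.

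Among the other ErbB receptors, Erbb2, the partner without a known ligand of its own, had group means of 48.1 to 94.2, and Erbb4, a receptor of neuregulins, of 4.47 to 9.62. Both are listed at levels too dim to test, which does not show that they are absent.

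Erbb3, a neuregulin receptor with little kinase activity of its own, differed between sets of control arrays. In the 24 h controls it read 42.6 and 22 on replicates 5 and 6, against 838, 613, 711 and 417 on replicates 1 to 4. Replicates 5 and 6 differed from 1 to 4 by -3.37 on the log2 scale (adjusted p = 0.000789). At 24 h the BMP2 arrays read 34.7 and 14.3 and the TSA arrays 174, 157, 147 and 127. The BMP2 arrays thus lay at the level of control replicates 5 and 6, and the TSA arrays between both sets of controls. BMP2 gave -2.44 ± 0.95 at 24 h (adjusted p = 0.0919), which became -0.19 (adjusted p = 0.934) with the Xist-high arrays as a term, and passed without control replicate 5 (adjusted p = 0.0326) or 6 (0.0184). TSA gave -0.72 ± 0.75 at 24 h (adjusted p = 0.483), and -1.85 with the Xist-high arrays as a term (adjusted p = 0.00582), the same value as with the replicate number as a block (adjusted p = 0.00654). At 6 h the signals were 31.5 and 305 with BMP2, 61 and 98.7 with TSA and 35.9 and 264 in controls, so that replicate 2 was above replicate 1 in all 3 groups and neither treatment passed.

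Pdgfra, the receptor of oligodendrocyte precursors, was the member lower after both reagents at both times. At 6 h it read 1168 and 1563 with BMP2, 832 and 515 with TSA and 2627 and 2764 in controls. At 24 h it read 261 and 349 with BMP2, and 1367, 1185, 982 and 1511 with TSA, against a lowest value of 2146, a median of 2445 and a highest of 3004 over the 6 controls. No treated array overlapped the controls of its time, a separation seen in 44% (BMP2, 6 h), 29.9% (BMP2, 24 h), 75.2% (TSA, 6 h) and 20.8% (TSA, 24 h) of all probe sets. The TSA arrays were below the BMP2 arrays at 6 h and above them at 24 h, where 75.3% and 55.5% of all probe sets separated these groups.

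The fall of Pdgfra with BMP2 was 1.97-fold at 6 h (log2 change -0.98 ± 0.23, adjusted p = 0.0454) and 7.58-fold at 24 h (-2.92 ± 0.19, adjusted p = 3.97e-08). With TSA it was 3.96-fold at 6 h (-1.99 ± 0.23, adjusted p = 5.03e-05) and 1.98-fold at 24 h (-0.99 ± 0.15, adjusted p = 0.000116). The BMP2 change deepened between the times, with a difference of -1.94 ± 0.30 between 24 and 6 h (adjusted p = 0.00407), while the TSA change shrank, with a difference of 1.00 ± 0.27 (adjusted p = 0.0308). Both comparisons at a time share their controls. Of the BMP2 effects, 0.775% of all genes differed between the times, and of the TSA effects 11.6%. The value of BMP2 at 6 h was near the threshold, and was lost without any single one of its 4 arrays (adjusted p = 0.0789 to 0.659). The TSA difference between the times did not pass without either control array of 6 h, TSA replicate 2 of 6 h or TSA replicate 1 of 24 h (adjusted p = 0.0503 to 0.225). With the Xist-high arrays as a term the changes at 24 h were -2.88 and -1.01.

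The second Pdgfra probe set fell by 2.30 on the log2 scale after 24 h of BMP2, with 14 and 15 on the BMP2 arrays and 97.8 to 352 over the controls, and by 2.10 after 6 h of TSA, where 22.5% of all probe sets passed. It was lower on control replicates 5 and 6 (106 and 97.8) than on replicates 1 to 4 (187 to 352), and its BMP2 change at 24 h was -1.53 with the Xist-high arrays as a term. After 24 h of TSA it gave -0.67 (adjusted p = 0.0779), and -1.06 with that term (adjusted p = 0.00101).

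Other genes of the oligodendrocyte lineage were measured beside Pdgfra. Of 12 tested markers 0 fell after 6 h and 9 after 24 h of BMP2 (7 with the Xist-high arrays as a term), and 4 fell after 6 h and 9 after 24 h of TSA. Of all genes 0.643% and 7.76% fell with BMP2 and 11.8% and 20.2% with TSA at these times. The 9 of TSA at 24 h were Sox10, Nkx2-2, Gpr17, Enpp6, Bcas1, Mbp, Cnp, Mag and Mog. Mog reached 100 only in the 24 h controls (mean 373), so it was tested only through the group where it was high. Olig1 (0.05), Olig2 (-0.11) and Cspg4 (-0.06) did not pass there, and Cspg4 passed in no comparison with controls. Over the 12 markers the median log2 change was -0.36 and -2.11 with BMP2 and -0.81 and -2.38 with TSA at 6 and 24 h, and no test set their time course against that of Pdgfra. Their summed signal per array was 14800 to 15020 with BMP2, 16311 to 27777 with TSA and 36814 to 51528 in controls at 24 h, and 35052 to 40351, 29688 to 32615 and 44961 to 48817 at 6 h. No treated array reached the controls of its time, and none of the 12 was below 100 in every group. Markers of other cells passed too. With BMP2 at 24 h 6 of 9 astrocyte and 1 of 6 ganglionic eminence markers fell (3 and 2 with the Xist-high arrays as a term). In that comparison 2 neuron, 1 ganglionic eminence and 1 progenitor marker rose. With that term 0, 0 and 2 rose, and 1 neuron and 1 progenitor marker fell. After 6 h of TSA 3 of 9 astrocyte, 3 of 9 neuron, 3 of 6 ganglionic eminence and 2 of 7 progenitor markers fell. After 24 h of TSA 3 of 9 astrocyte, 3 of 9 neuron and 1 of 6 ganglionic eminence markers fell. So did 2 of 7 progenitor and 2 of 5 dividing-cell markers (1 of each with that term), while 2 neuron and 2 progenitor markers rose. Of these neuron markers Stmn2 reached 100 only in that group (mean 195), so it was tested only because it was high there. In either direction 17.7% of all genes passed with BMP2 at 24 h, and 26.4% and 38.8% with TSA at 6 and 24 h. The part of the number of cells of any type in the Pdgfra values was not tested.

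Pdgfrb, the second PDGF receptor, was dim and uneven. At 24 h it read 89.7 and 17.6 with BMP2, and 207, 363, 392 and 213 with TSA, against 74.8 on control replicate 6 and 260 to 484 on the other 5 controls. The groups overlapped through this 1 control. BMP2 at 24 h gave -1.98 ± 0.50 (adjusted p = 0.0128), but -1.48 (adjusted p = 0.148) with the Xist-high arrays as a term and -1.33 (adjusted p = 0.252) without BMP2 replicate 2. TSA gave 0.04 ± 0.40 at 24 h. At 6 h the arrays read 114 and 264 with BMP2, 131 and 206 with TSA and 218 and 458 in controls, and neither change passed. Of 10 markers of mural cells and fibroblasts 7 were below 100 in every group, among them Rgs5, a pericyte gene, at 6.84 to 54.5 in group means. Of the 3 tested, Acta2 read 334 to 487 in group means, and Tagln, a smooth muscle gene, rose after 24 h of BMP2 (770 ± 118 with BMP2 and 117 ± 74.7 in controls, 2.57, adjusted p = 0.00176, and 2.73 with the Xist-high arrays as a term), where Pdgfrb was lower. Col1a2, a collagen gene, rose after 24 h of TSA by 0.54 (adjusted p = 0.0139). It reached 100 only in that group, with a mean of 118 there and 65.4 to 86.6 in the others. It was thus tested only through the group where it was high, and its rise is no support. The summed signal of the 10 markers was 1380 to 1469 with BMP2, 565 to 1096 with TSA and 481 to 952 in controls at 24 h, and their part in the Pdgfrb values was not tested.

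Fgfr1, the main FGF receptor of forebrain progenitors, rose after 24 h of TSA. It read 1442, 1444, 862 and 1110 with TSA and 502 to 1004 over the 6 controls, with a control median of 842. The groups overlapped in TSA replicate 3 and control replicates 1, 2 and 5, while each TSA array was above the control of its own number, at 1004, 882, 502 and 597. The change was 0.60 ± 0.18 (adjusted p = 0.0175), 0.70 with the Xist-high arrays as a term and 0.70 with the replicate number as a block (adjusted p = 2.19e-05), and it did not pass without TSA replicate 1 (adjusted p = 0.0633) or 2 (0.0583). All 3 Fgfr1 probe sets rose, by 0.60, 1.13 and 0.58, where 35.4% of all probe sets passed, and the 1.13 of the second was 0.72 with the Xist-high arrays as a term. With BMP2 the change was 0.07 at both times, with 95% intervals of -0.53 to 0.67 at 6 h and -0.42 to 0.56 at 24 h.

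Second probe sets of Fgfr1 and Fgfr2 differed between the 4 Xist-high arrays and the rest. The second Fgfr1 probe set read 117 and 115 after 24 h of BMP2, and 149 and 126 on control replicates 5 and 6, against 295 to 421 on control replicates 1 to 4. Its BMP2 change of -1.01 passed (adjusted p = 0.0486), as did those of 16.5% of all probe sets, and was -0.19 (adjusted p = 0.681) with the Xist-high arrays as a term. The second Fgfr2 probe set read 117 and 107 with BMP2, 91.7 and 96.7 on control replicates 5 and 6, and 400 to 459 on replicates 1 to 4. Over the controls alone, replicates 5 and 6 differed from 1 to 4 by -1.23 for the Fgfr1 probe set (adjusted p = 0.00631) and by -1.88 for that of Fgfr2 (adjusted p = 0.000525). The brightest probe sets of the same genes differed less between these controls, by 0.30 for Fgfr1 (adjusted p = 0.494) and -0.54 for Fgfr2 (adjusted p = 0.0455).

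Fgfr2 and Fgfr3, further FGF receptors, passed in no comparison with controls in the model of 6 groups. Fgfr2 read 480 and 729 with BMP2, 361 and 511 with TSA and 526 and 749 in controls at 6 h. Its change was -0.04 (95% interval -0.54 to 0.46) with BMP2 and 0.15 (-0.24 to 0.55) with TSA at 24 h. Fgfr3 read 1568 and 1531 with BMP2, 823 and 639 with TSA and 1225 and 1113 in controls at 6 h. The 2 reagents thus lay on opposite sides of the controls, at 0.40 for BMP2 (adjusted p = 1) and -0.66 for TSA (adjusted p = 0.0731, and 0.0149 with only the groups compared). At 24 h the changes of Fgfr3 were -0.17 (-0.61 to 0.28) and 0.26 (-0.09 to 0.61).

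Igf1r, the receptor of IGF1 and IGF2, read 842, 894, 608 and 367 after 24 h of TSA, against a lowest value of 214, a median of 444 and a highest of 641 in controls. The TSA change of 0.59 ± 0.25 did not pass (adjusted p = 0.0738). With the replicate number as a block it was 0.64 and passed (adjusted p = 0.000424), as it did without control replicate 2 (0.0327) or TSA replicate 4 (0.0123). With BMP2 it read 418 and 453 at 6 h and 466 and 444 at 24 h, with changes of -0.14 and 0.13 whose 95% intervals ran from -0.96 to 0.67 and from -0.54 to 0.79.

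Set directly against BMP2, TSA at 6 h left Egfr higher (1.24 ± 0.34, adjusted p = 0.014) and Pdgfra (-1.01 ± 0.23, adjusted p = 0.00479) and Fgfr3 (-1.06 ± 0.25, adjusted p = 0.00649) lower. These are 3 of 8 members, where 28% of all genes passed, and none of the 3 passed without TSA replicate 2 (adjusted p = 0.0535 to 0.097), nor Pdgfra and Egfr without BMP2 replicate 2 (0.0706 and 0.0953) or Egfr without TSA replicate 1 (0.0916). At 24 h Egfr (2.71 ± 0.29, adjusted p = 7.3e-06), Pdgfra (1.94 ± 0.20, adjusted p = 4.82e-06) and Pdgfrb (2.02 ± 0.53, adjusted p = 0.00803) were higher with TSA than with BMP2, where 38.4% of all genes passed. With the Xist-high arrays as a term 14.2% of all genes passed, Egfr (3.53) and Pdgfra (1.87) among them, and Pdgfrb did not (1.28, adjusted p = 0.286, and 0.151 without BMP2 replicate 2 and without that term). All BMP2 arrays of 24 h and no TSA array belong to the Xist-high set, so this comparison reaches across it only through the controls.

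Egfr was the other member whose TSA effect differed between the times, by 1.54 ± 0.40 (adjusted p = 0.0244), and so did all 4 of its tested probe sets, where 9.85% of all probe sets passed. Its BMP2 effect differed by 0.08 (95% interval -0.85 to 1.00). The TSA difference did not pass without either TSA or either control array of 6 h (adjusted p = 0.0721 to 0.122). In the controls themselves, 0 of 8 members differed between 24 and 6 h, where 4.34% of all genes passed. With the Xist-high arrays as a term Erbb3 was higher at 24 h by 2.21 (adjusted p = 0.0267), where 9.02% passed. The second Igf1r probe set was lower at 24 h, with 161 to 255 at 24 h against 377 and 415 at 6 h (-0.86, adjusted p = 0.0192), and 4.39% of all probe sets passed.

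The ligand genes changed as well. Of the EGF and neuregulin family 3 of the 10 genes on the array were bright enough to test. Tgfa, which encodes the EGFR ligand TGF-alpha, averaged 304 ± 12.8 (SD, n = 2) with BMP2, 224 ± 58 (n = 4) with TSA and 834 ± 80.7 (n = 6) in controls at 24 h, and it fell with both (-1.36, adjusted p = 3.4e-05, and -1.78, adjusted p = 1.69e-07). After 6 h of TSA it had fallen by 0.96 on the log2 scale (adjusted p = 0.00343). Hbegf, another EGFR ligand, averaged 709 ± 130 with BMP2 and 292 ± 117 in controls at 24 h, and rose by 1.25 (adjusted p = 0.013).

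Pdgfa, the ligand of Pdgfra, fell in 3 of the 4 comparisons. It averaged 122 ± 3.13 with TSA and 590 ± 173 in controls at 6 h (-1.99, adjusted p = 0.00314). At 24 h it averaged 166 ± 4.37 with BMP2, 181 ± 59.5 with TSA and 612 ± 239 in controls (-1.60, adjusted p = 0.00397, and -1.54, adjusted p = 0.000405). Ligand and receptor were thus both lower after TSA at both times and after 24 h of BMP2. Pdgfc, which also signals through Pdgfra, rose with BMP2 by 1.17 at 6 h (adjusted p = 0.0283) and 1.40 at 24 h (adjusted p = 0.000216), with 875 ± 199 in BMP2 arrays and 314 ± 80 in controls at 24 h. Of the FGF family only 2 of 16 genes were tested, and Fgf13, an intracellular member of the family that does not act as a secreted ligand, fell after 6 h of TSA (-1.04, adjusted p = 0.00298).

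Of the insulin-like group 7 of 8 genes were tested. At 24 h of BMP2 Igf1 rose by 1.94 (203 ± 161 with BMP2 and 21.5 ± 3.05 in controls, adjusted p = 9.29e-05), and so did Igfbp3, which encodes an IGF-binding protein, by 1.52 (adjusted p = 0.00516). At 24 h of TSA 4 of the 7 rose (5 with the Xist-high arrays as a term) and 0 fell, where 18.6% of all genes rose, among them Igfbp4 by 1.84 (507 ± 232 with TSA and 118 ± 64.5 in controls, adjusted p = 0.000125) and Igf2 by 1.60 (117 ± 55.3 and 14.7 ± 7, adjusted p = 3.54e-05). No gene of the group passed at 6 h. Igf1 was bright enough to test only through the BMP2 arrays of 24 h, and its mean was at most 35.7 in the other groups. Igf2 was bright enough only through the TSA arrays of 24 h, with means of 14.7 to 21.5 in the other groups. Each was thus tested only through the group where it was high, and its rise there is no support. Igf2 is among the 4 of 7 counted for TSA.

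**Figure D4:**
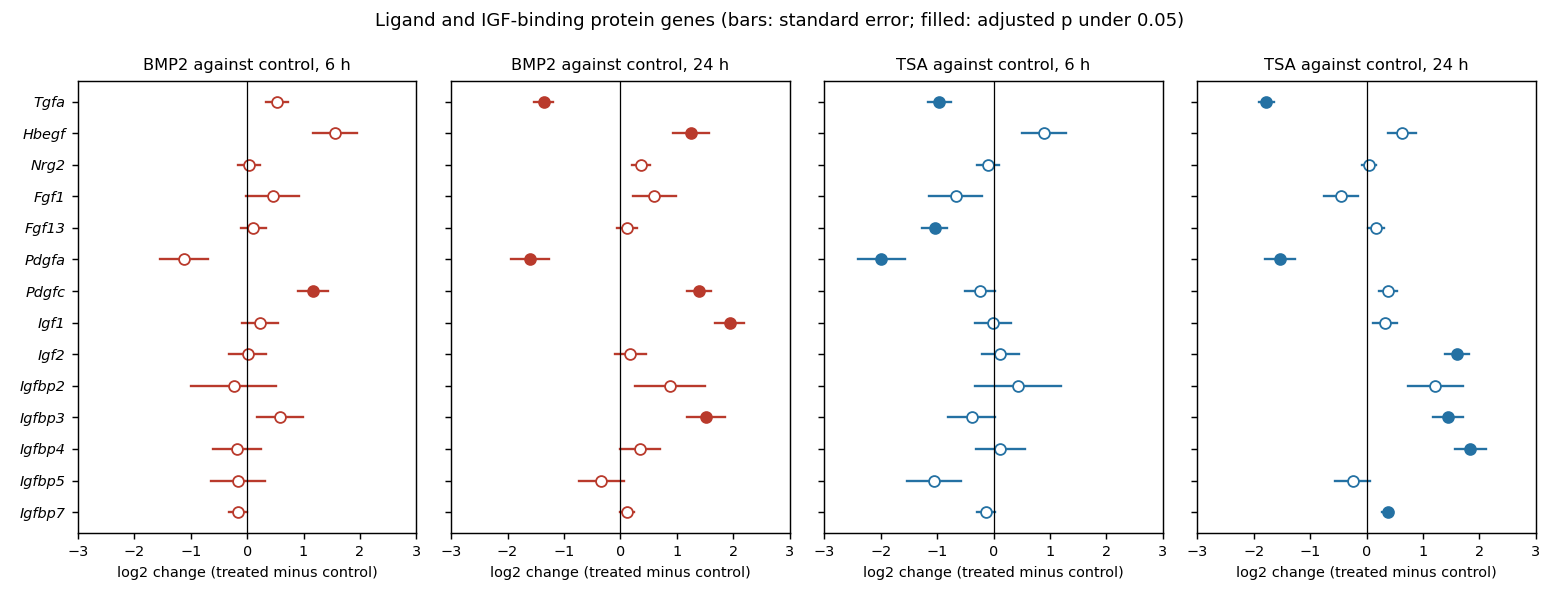
Log2 change against the controls of the same time for the 14 tested genes of ligands and IGF-binding proteins, with bars for the standard error and filled symbols for an adjusted p under 0.05. Tgfa and Pdgfa lie left of 0 in both panels of 24 h, while Hbegf, Pdgfc, Igf1 and Igfbp3 are filled on the right with BMP2 at 24 h.

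Of 11 tested related receptors, 0 rose and 1 fell with BMP2 at 6 h, 1 rose and 2 fell with BMP2 at 24 h, 0 rose and 3 fell with TSA at 6 h, and 2 rose and 1 fell with TSA at 24 h. Of all genes 1.8%, 17.7%, 26.4% and 38.8% passed in these comparisons. The 3 of 11 under TSA were thus near the share of the array at 6 h and below it at 24 h. All 3 of TSA at 6 h fell, where 11.8% of all genes fell. In each comparison with controls at 24 h, 2 rose and 2 fell once the Xist-high arrays were a term. Kit, the receptor of stem cell factor, averaged 37.5 ± 19.3 with TSA and 303 ± 94.9 in controls at 24 h (-2.26, adjusted p = 1.07e-06). Ntrk2, the BDNF receptor, averaged 1697 ± 248 with BMP2 and 3740 ± 470 in controls at 24 h (-1.12, adjusted p = 0.00153). Kdr, a VEGF receptor, rose with BMP2 at 24 h (1.36, adjusted p = 0.000129), and Tyro3, a receptor of Gas6 and protein S, fell at 6 h (-1.14, adjusted p = 0.0414) and 24 h (-1.34, adjusted p = 0.000466).

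Downstream of the receptors, 24 adaptor and effector genes were tested. With BMP2 0 passed at 6 h, where 1.8% of all genes did. At 24 h of BMP2 2 rose and 2 fell, where 17.7% of all genes passed. Of these Braf (0.39) and Gab1 (-0.90) were lost with the Xist-high arrays as a term (adjusted p = 0.195 and 0.124). Fyn, a Src family kinase known from oligodendrocyte maturation, averaged 2166 ± 274 with BMP2 and 4113 ± 671 in controls (-0.91, adjusted p = 9.9e-05). With TSA 4 rose and 5 fell at 6 h, where 26.4% of all genes passed, and 1 rose and 6 fell at 24 h (4 with the Xist-high arrays as a term), where 38.8% passed. Shc1, an adaptor that links receptors to Ras, rose at 6 h (0.81, adjusted p = 0.00453) and 24 h (0.55, adjusted p = 0.00178), while Src (-1.62, adjusted p = 0.00144) and Akt2 (-1.17, adjusted p = 0.000307) fell at 6 h.

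Of 17 inhibitors and turnover genes, 1 fell with BMP2 at 6 h, 2 at 24 h, 4 with TSA at 6 h and 5 at 24 h, and 1 rose at each time of TSA. The 2 that fell with BMP2 at 24 h became 1 with the Xist-high arrays as a term, Nedd4, a ubiquitin ligase, no longer passing (adjusted p = 0.0956). Of all genes 1.8% and 17.7% passed with BMP2 and 26.4% and 38.8% with TSA, so neither TSA count stood far from the share of the array. The gene of the phosphatase Ptpre fell in all 4 comparisons. It averaged 43.3 ± 9.18 with BMP2, 312 ± 31.2 with TSA and 827 ± 108 in controls at 6 h, and 58.6 ± 6.75, 176 ± 90 and 935 ± 196 at 24 h. Its log2 changes were -3.51 and -3.40 with BMP2 and -1.32 and -2.28 with TSA. Errfi1, a feedback inhibitor of EGFR, was higher after 6 h of TSA (411 ± 81.7 with TSA and 237 ± 21.4 in controls, adjusted p = 0.00663) and lower after 24 h (186 ± 14.1 and 303 ± 36.5, adjusted p = 0.000409). Lrig1, which promotes the removal of EGFR, averaged 2874 ± 345 with TSA and 1887 ± 663 in controls at 24 h (0.66, adjusted p = 0.0391).

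Over the 18 arrays the genes with the pattern most like that of Egfr, among 10286 searched, were Spsb4 (Pearson r = 0.943), Tmem51 (0.936) and Inhbb (0.934). For Pdgfra they were Gpr37l1 (0.945), Bcat1 (0.938) and Rnf144a (0.901), and for Pdgfrb Glul (0.925), Naaa (0.905) and Wscd1 (0.854). For Fgfr1 the likeness was lower, with Abcb6 at 0.854 the highest. The points share the treatment groups, so these values describe the arrays and carry no test. On the 14 arrays without high Xist signal the leading genes had r = 0.952 for Egfr with Spsb4, 0.926 for Pdgfra with Gpr37l1 and 0.855 for Pdgfrb with Glul. Naaa with Pdgfrb dropped to 0.684 there. Between members, the highest correlations over all 18 arrays were those of Fgfr1 with Igf1r (0.724), Pdgfrb with Erbb3 (0.68), Erbb3 with Fgfr2 (0.658) and Pdgfra with Pdgfrb (0.642), whereas Egfr with Pdgfra gave 0.499. Correlations between members were not computed without the Xist-high arrays.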

How the data were processed

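The deposited table gives, for 18 Mouse Genome 430 2.0 arrays, the intensity of each probe set on a linear scale. The submitters' notes name MAS5 (version not given), while the published methods name dChip with quantile normalization, and array medians as deposited were 35.4 to 41.6. The depth of an array is not a count, so the number of arrays limits the precision. Signals were quantile-normalized, 32 was added and log2 taken, and the 19439 probe sets that reached 100 in the mean of any group were fitted in 1 model of the 6 groups with limma 3.58.1 (R 4.3.3, eBayes with trend), with the adjustment of Benjamini and Hochberg in every comparison at a threshold of 0.05. The steps were tested on simulated data. The platform annotation paired 34958 probe sets with 1 symbol, 932 with several and 9211 with none. The brightest probe set on average stood for its gene (10574 genes). The Xist-high arrays had a signal above 300 for 1 Xist probe set.

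The text names all members. Of each pathway list it draws on the called genes with the smallest adjusted p in each treatment comparison (up to 2 in each direction). Any called Pdgfa, Nrg1, Tgfa, Hbegf, Fgf2, Igf1, Errfi1 or Lrig1 was added. Of the genes under this rule Axl, Map2k1, Nras, Pik3r3 and Ptprj are not named. The 3 genes most correlated with each called member are named (predicted genes passed over), but for Fgfr1 only the first. Members, lists, tests and alternatives were chosen with earlier results of these data known. Equal replicate numbers were checked on deviations from the group means. At 24 h the 4 numbers shared by TSA and control arrays gave correlations of 0.41, 0.57, 0.44 and 0.28. For replicate 4 the control of its own number was not the closest. A pairing of these arrays is an inference from the data, since the labels state none. It enters only the replicate block, and the main model and its p-values leave it out. Alternatives were the deposited signals, median scaling, other pseudocounts and filters, no trend, only the groups compared, the mean of a gene's probe sets, the study's criteria (ratio over 2, difference over 100, and limma p before adjustment under 0.1 in place of its confidence criterion), a replicate block, the Xist-high arrays as a term, the 24 h controls of 1 set only, and each array left out.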

Additional observations from a re-analysis of the deposited data

Results flagged for a closer look

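In 3 of 36 groups of 4 to 6 arrays an array lay apart from the rest of its group, and chance alone gives about 1 in 20. Pdgfrb read 74.8 on control replicate 6 of 24 h, where the other 5 controls read 260 to 484. The second Egfr probe set read 1802 on TSA replicate 3 of 24 h, where the other 3 read 1338 to 1380. The third Egfr probe set read 305 on control replicate 6 of 24 h, where the other 5 read 187 to 223.

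Effects that differed between 24 h and 6 h by the test of the difference were those of BMP2 on Pdgfra (-1.94) and of TSA on Pdgfra (1.00) and Egfr. For Egfr all 4 tested probe sets passed, with log2 differences of 1.54, 2.04, 0.93 and 1.88 in order of brightness.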

How the results depend on the processing

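Over 352 alternative values of called members, 309 kept their direction and side of the threshold, 43 lost the call and 0 reversed. Members called with BMP2 at 6 h were 2, but 1 with the deposited signals, median scaling, no filter, no trend, only the groups compared, the mean of a gene's probe sets or the study's criteria, and 0 to 1 with an array left out. With TSA at 6 h the count of 1 became 3 with only the groups compared (Egfr and Fgfr3 added) and 2 with the Xist-high arrays as a term or the mean of probe sets. With TSA at 24 h the count of 3 became 0 by the study's criteria, as applied here to brightest probe sets and all controls of 24 h. The study itself lists Egfr as raised in that comparison. Fgfr1 was lost with median scaling (adjusted p = 0.062) or only the groups compared (0.058), which also lost Pdgfrb with BMP2 at 24 h (0.0521). For TSA against BMP2 the count of 3 became 0 to 3 with an array left out at 6 h and 6 at 24 h with the mean of probe sets. For the TSA effect between the times 2 became 1 with median scaling or no filter, and 0 to 3 with an array left out. For controls of 24 h against 6 h, 0 became 1 (Erbb3) with the Xist-high arrays as a term or control replicates 1 to 4 only, a restriction of the controls chosen after seeing the data. The cause of these shifts was not tested.

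Left-out ranges of members called were 2 to 4 for BMP2 at 24 h, 2 to 4 for TSA at 24 h and for TSA against BMP2 at 24 h. Probe sets called numbered 286 for BMP2 at 6 h (93 to 142 with an array left out, 501 with only the groups compared), 3214 for BMP2 at 24 h (1234 to 4750, and 1868 with the Xist-high arrays as a term, 1745 with control replicates 5 and 6 only, 1961 with only the groups compared, 1623 by the study's criteria), 4378 for TSA at 6 h (1897 to 2353, 8676 with only the groups compared, 1866 by the study's criteria) and 6878 for TSA at 24 h (1564 by the study's criteria). They numbered 4724 for TSA against BMP2 at 6 h (2305 to 2735, 8873 with only the groups compared), 7396 at 24 h (3876 to 7139, 2506 with the Xist-high arrays as a term), 122 for the BMP2 effect between the times (48 to 153, 75 at a filter of 200, 77 with the Xist-high arrays as a term, 68 with control replicates 5 and 6 only), 1915 for the TSA effect (412 to 2142, 1264 with no filter, 1263 with only the groups compared) and 854 for controls between the times (11 to 1126, 394 with no filter, 23 with only the groups compared, 1642 with the Xist-high arrays as a term, 1693 with control replicates 1 to 4).

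With the replicate number as a block, members called were 2 for BMP2 and 3 for TSA at 6 h (Fgfr3 at an adjusted p of 0.00174), 4 for BMP2 and 5 for TSA at 24 h, 3 and 7 for TSA against BMP2 at 6 and 24 h, 3 for the BMP2 effect and 4 for the TSA effect between the times, and 1 for the controls. Probe sets called under the block were 630, 8761, 7711, 7850, 3738, 4688 and 4678 for BMP2 at 6 and 24 h, TSA at 6 h, TSA against BMP2 at 6 h, the BMP2 and TSA effects between the times, and the controls. The number of probe sets tested was 19439. No such count is given for TSA at 24 h or for TSA against BMP2 at 24 h. The 5 and 7 members called there thus stand without a share of the array beside them. Equal numbers correlated at 0.57 to 0.71 at 6 h, with 2 pairs, and at -0.13 and 0 for BMP2 with controls at 24 h, so there the arrays share only a number. No treated array has the number 5 or 6, so control replicates 5 and 6 drop out under the block. BMP2 at 24 h is then compared only with controls outside the Xist-high set. Erbb3 gave -3.72 in that comparison, and -0.19 with the Xist-high arrays as a term.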
